A study of Homo sapiens with 52 samples.

Results

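Expression of 10 genes of the Notch pathway is described here, out of 63241 genes in the count table: the ligands DLL1, DLL3, JAG1 and JAG2, the receptors NOTCH1, NOTCH2 and NOTCH3, and the HES family genes HES1, HES5 and HES6. All 10 members were found by matching Ensembl identifiers to these symbols. DLL1 was chosen by its higher level in control neurites than in control soma, so every contrast of DLL1 that contains those control libraries is given as a description with no test. RNA was sequenced from neurite and soma fractions of i3Neurons, neurons made with doxycycline from the human induced pluripotent stem cell line WTC11, which carries an inducible neurogenin-2 transgene. The neurons were grown on membranes with 1 µm pores from day 3, and both sides were harvested on day 17. The groups were neurons with CRISPR interference guides against hnRNPA1 (6 neurite and 6 soma libraries), their non-targeting guide controls (6 and 6), neurons with guides against TDP43 (5 neurite libraries and 4 soma libraries used), their non-targeting controls (5 and 5), and untreated neurons with no guide (4 and 4). All groups share the cell line and the doxycycline induction, and untreated libraries were made with version 2 of the kit and all others with version 3. The labels do not say whether numbered samples are separate cultures, so p-values measure the spread between these samples, which may be technical.

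Notch is a receptor that is cut when a ligand on a neighbouring cell binds it. The freed intracellular part joins RBPJ and Mastermind proteins on DNA and switches on genes such as HES1 and HES5, repressors that hold back proneural factors in neural progenitors. Proneural factors in turn raise DLL1 and DLL3 in cells that become neurons. JAG1 and JAG2 are the Serrate-type ligands, DLL3 acts mostly inside the cell that makes it and can dampen signalling, and HES6 opposes HES1 and is itself raised by proneural factors.

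The upstream sequences of HES1 and HES5, the textbook targets of Notch, are shown for the RBPJ motif they hold. Each runs over the 250 bases before the RefSeq start site in build GRCh38.p14, 5′ to 3′ on the strand of the gene. Capitals mark the RBPJ motif GTGGGAA on either strand.
HES1, chr3:194135898-194136147, plus strand: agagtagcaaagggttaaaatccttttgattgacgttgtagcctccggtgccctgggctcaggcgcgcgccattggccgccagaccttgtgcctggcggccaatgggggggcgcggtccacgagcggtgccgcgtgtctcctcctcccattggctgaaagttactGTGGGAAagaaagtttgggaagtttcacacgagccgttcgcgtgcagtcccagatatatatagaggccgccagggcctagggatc
HES5, chr1:2530264-2530513, minus strand: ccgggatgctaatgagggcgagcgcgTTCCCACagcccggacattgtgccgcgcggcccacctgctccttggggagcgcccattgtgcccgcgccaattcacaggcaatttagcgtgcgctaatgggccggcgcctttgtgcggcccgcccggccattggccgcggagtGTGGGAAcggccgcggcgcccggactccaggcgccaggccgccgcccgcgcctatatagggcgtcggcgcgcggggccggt
A table of RefSeq promoters held 8 of the 10 members, all but DLL1 and DLL3. The RBPJ motif was found once upstream of HES1, with its first base at -85 from the start site, and in 2 places upstream of HES5, at -81 and, on the other strand, at -224. It had 0 matches upstream of HES6, JAG1, JAG2, NOTCH1, NOTCH2 and NOTCH3, and 5.43% of 35116 promoters of this length hold it. The E box CAGNTG, a form bound by proneural factors, was found upstream of HES6 at -158, where CAGCTG reads the same on both strands, of HES5 at -192 and of JAG2 at -36, and 42.5% of promoters hold one. The N box CACNAG, a form bound by HES proteins, had 3 matches upstream of HES1 and 1 upstream of NOTCH3, and 32% of promoters hold one. No match of one motif overlaps a match of another in these windows, and a match is only a run of letters.

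In units of 1000000 counts, library totals ran from 6.26 to 14.98 in neurites and from 8.00 to 19.4 in soma of the hnRNPA1 experiment, from 6.84 to 14.5 in neurites and from 15.7 to 28.9 in soma of the TDP43 experiment, and from 2.54 to 4.35 in neurites and from 5.21 to 10.5 in soma of untreated cells. One TDP43 knockdown soma library, sample 5, held 541 counts and was left out. The knocked-down genes were lower as labelled: HNRNPA1 averaged 201 ± 16.0 CPM in knockdown neurites and 589.5 ± 32.6 CPM in control neurites (SD, n = 6 each), and TARDBP, the gene of TDP43, averaged 19.5 ± 0.934 CPM in knockdown soma (SD, n = 4) and 110.7 ± 4.59 CPM in control soma (SD, n = 5). Levels in CPM are counts divided by a library size that was scaled within each experiment, per 1000000. All 12 neuronal markers averaged over 0.5 CPM in each group. Of 12 neural progenitor markers, 11 passed the filter on low counts in each knockdown experiment and 7 in untreated cells. Of these, 8 were called higher and 1 lower (SOX9) in neurites than soma of hnRNPA1 controls, against 23.5% and 24.9% of all genes. In TDP43 controls 6 were higher and 2 lower (SOX9 and SOX2), against 24.1% and 22.3%. In untreated cells 3 were higher and 0 lower, against 28.7% and 27.8%. Of 12 cycling markers, 7, 9 and 9 passed the filter in the same 3 comparisons. There 7 were higher and 0 lower, 9 higher and 0 lower, and 6 higher and 1 lower (PLK1). With library sizes these splits were 5 and 2, 6 and 4, and 1 and 4 for progenitor markers, and 5 and 0, 6 and 0, and 1 and 2 for cycling markers. The summed level of the 12 progenitor markers ran from 470 to 582 CPM in hnRNPA1 control neurites and from 261 to 286 CPM in the soma beside them. NES alone made up most of this sum in hnRNPA1 control neurites. The sum of the 12 cycling markers ran from 33.7 to 42.6 CPM in these neurites and from 17.5 to 19.6 CPM in this soma. In TDP43 controls the progenitor sums ran from 374 to 446 CPM in neurites and from 197 to 251 CPM in soma. In untreated cells they ran from 252 to 292 CPM in neurites and from 103 to 114 CPM in soma. The cycling sums ran from 32.5 to 40.7 CPM in neurites and from 13.9 to 14.9 CPM in soma of TDP43 controls. They were higher in untreated cells, at 85.5 to 102 CPM in neurites and 36 to 58.8 CPM in soma. CDK1 and AURKB averaged under 0.5 CPM in the 8 groups of the knockdown experiments, as did POU5F1 and NANOG of the pluripotent list, and no marker of the progenitor or cycling lists was at 0 in every library of a group. The part of such cells in the results below was not tested.

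**Figure D1:**
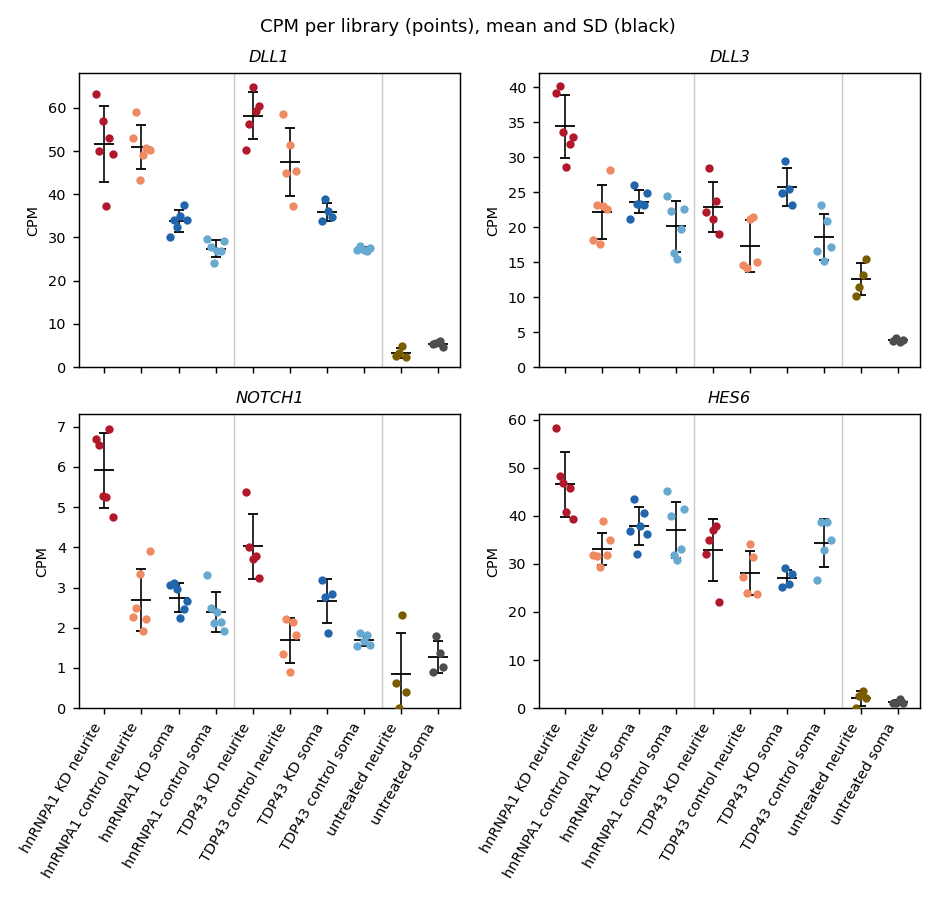
Level of DLL1, DLL3, NOTCH1 and HES6 (CPM, y axis) in each library of the 10 groups (x axis; KD, knockdown). Points are libraries and black bars the mean and SD; DLL1 and HES6 lie at or below 6.02 CPM in all untreated libraries and at or above 22.0 CPM in all others.

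Per kilobase of exon, HES6 and 3 of the ligands lay above the other members in the controls of the hnRNPA1 experiment. In hnRNPA1 control neurites the mean level per kilobase was 16.2 CPM for HES6, 15.8 CPM for DLL1, 8.46 CPM for DLL3 and 5.21 CPM for JAG2. HES5, JAG1 and NOTCH3 lay at 0.905, 0.8003 and 0.504 CPM per kilobase, and NOTCH1, HES1 and NOTCH2 at 0.259, 0.230 and 0.102 CPM per kilobase. In the soma of the same controls HES6 had 18.2 CPM per kilobase, DLL1 8.49, DLL3 7.70 and JAG2 7.01, and the other 6 members lay between 0.0676 and 1.55 CPM per kilobase. DLL1, DLL3 and JAG2 RNA was more abundant per length than that of the 3 receptors in both fractions. HES1 had 195 counts over all 52 libraries and passed the filter on low counts in no experiment.

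Neurites against soma was tested in 5 conditions with edgeR, and calls are at an adjusted p under 0.05 over all genes. Counts here leave out DLL1 in every condition, since it was chosen on this contrast in controls. In hnRNPA1 knockdown cells 7 of the 8 others that passed the filter were called, 4 higher and 3 lower in neurites, against 35.9% of all genes tested. In hnRNPA1 controls 3 of the 8 members tested other than DLL1 were called, 1 higher and 2 lower, against 48.3% of all genes. In TDP43 knockdown cells 3 of 8 were called, 2 higher and 1 lower, against 57.7%. In TDP43 controls it was 4 of 8, 2 higher and 2 lower, against 46.5%. In untreated cells 4 of the 5 that passed the filter were called, 1 higher and 3 lower, against 56.5%. These splits depend on scaling: with library sizes in place of TMM the median log2 of all genes was -0.46 in hnRNPA1 knockdown cells in place of -0.02, and 1 member was called higher and 3 lower there. The splits with library sizes were 0 higher and 5 lower in hnRNPA1 controls and 1 and 4 in TDP43 knockdown cells. They were 1 and 6 in TDP43 controls, and 0 and 4 in untreated cells. In bulk samples, fewer cells of a type and less RNA per cell cannot be told apart.

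**Figure D2:**
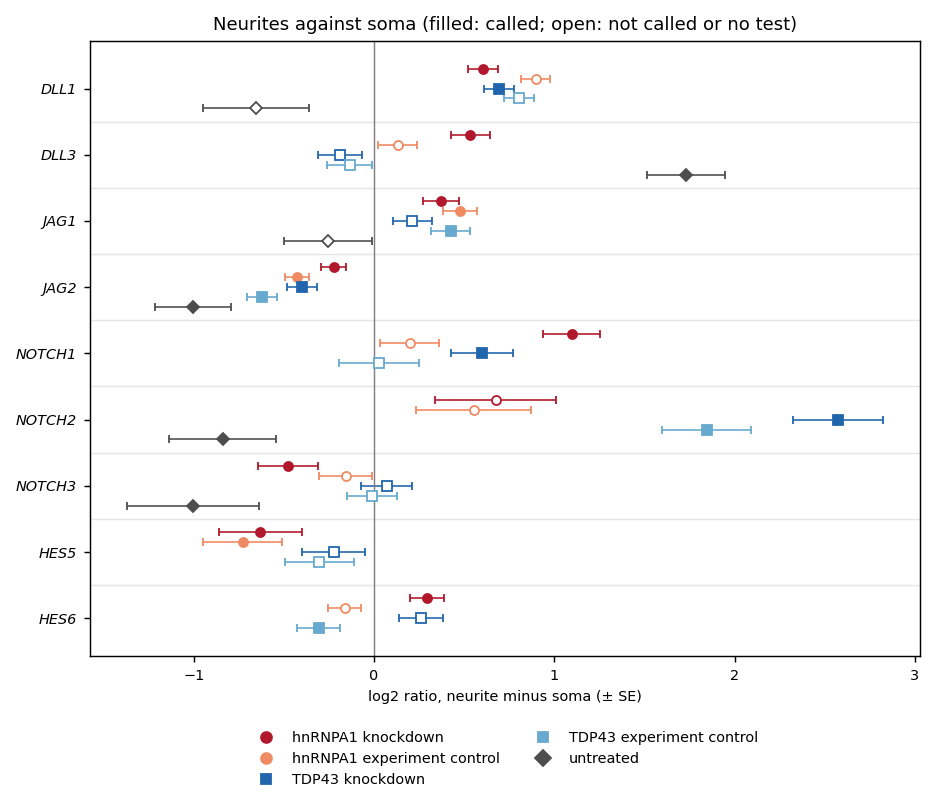
Log2 ratio of neurites to soma (x axis, ± SE) for the 9 members that passed the filter in at least 1 experiment (y axis), in hnRNPA1 knockdown and control, TDP43 knockdown and control, and untreated cells. Filled symbols were called, and open ones were not or, for DLL1 in controls, were not tested; JAG2 lies left of 0 in all 5 conditions.

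Knockdown against control was tested in each fraction for the 9 members other than DLL1, of which 8 passed the filter, since DLL1 was chosen on the control libraries. In hnRNPA1 knockdown neurites 4 of the 8 tested were called, all higher (DLL3, JAG2, NOTCH1 and HES6), against 16.1% of all genes tested, with a median log2 ratio of 0.43 over the 8 and 0.00 over all genes. In hnRNPA1 knockdown soma edgeR called 0 of 8, against 7.07% of genes. At an unadjusted p under 0.05 it was 2 of 8, and DESeq2 called 0. In TDP43 knockdown neurites 2 of 8 were called, both higher (DLL3 and NOTCH1), against 24.7%, and in TDP43 knockdown soma 3 of 8, of which DLL3 and NOTCH1 were higher and HES6 lower, against 18.9%. With library sizes the last split was 2 higher and 0 lower.

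**Figure D3:**
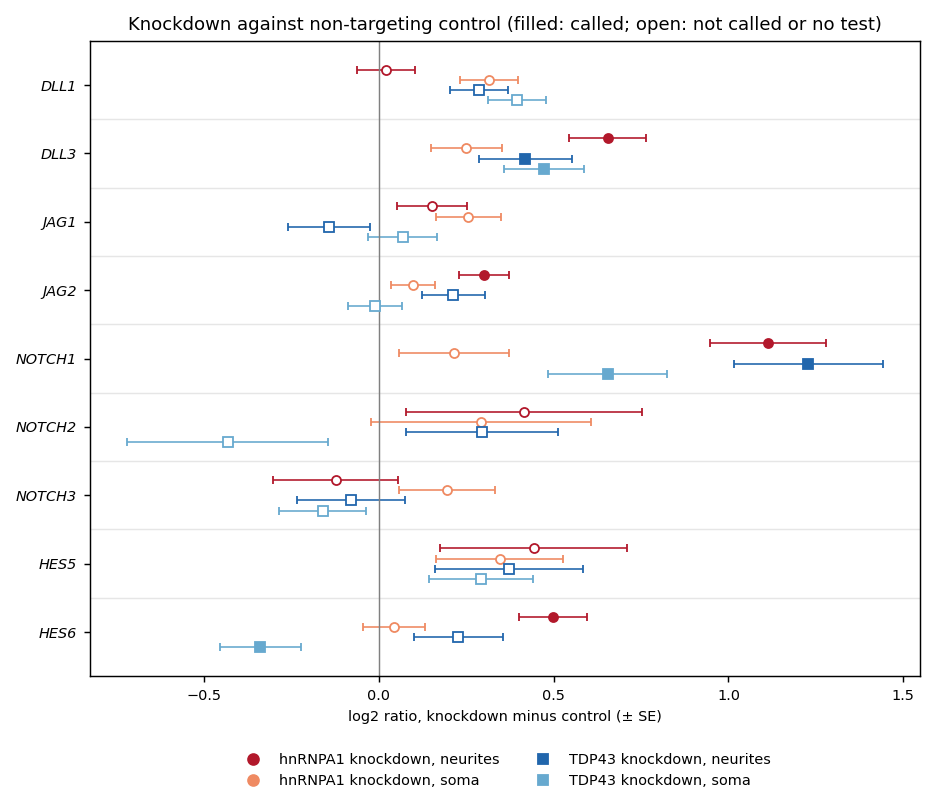
Log2 ratio of knockdown to non-targeting control (x axis, ± SE) for 9 members (y axis) in neurites and soma of both experiments. Filled symbols were called, and open ones were not or, for DLL1, were not tested; NOTCH1 in neurites lies at 1.113 for hnRNPA1 and 1.228 for TDP43 knockdown, and HES6 lies right of 0 in hnRNPA1 knockdown neurites and left of it in TDP43 knockdown soma.

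The change of the neurite to soma ratio on knockdown was called by edgeR in 0 of the 8 members tested other than DLL1 for hnRNPA1, against 0.177% of genes. At an unadjusted p under 0.05 it was 4 of 8, DESeq2 called 0, and without a filter on low counts edgeR called 1 (HES6, 0.42, adjusted p = 0.0268). For TDP43 1 of 8 was called (HES6), against 10.4% of genes. The difference between the hnRNPA1 and TDP43 knockdown effects was called in 0 of the same 8 members in neurites, against 16.8% of genes, and in 0 of 8 in soma, against 12.7%. At an unadjusted p under 0.05 there were 0 members in neurites and 1 in soma (HES6), and DESeq2 called 0 in both. For NOTCH1 the hnRNPA1 effect minus the TDP43 effect was -0.13 ± 0.27 log2 (SE) in neurites and -0.44 ± 0.23 in soma.

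DLL1, the ligand that presents to Notch on neighbouring cells, was higher in neurites than in soma in every group with a guide and was not called higher in untreated cells. It lies on chr6:170282206-170306565, minus strand (hg38). In hnRNPA1 control neurites it ran from 43.35 to 59.0 CPM with a median of 50.5, and in control soma from 24.2 to 29.5 CPM with a median of 27.4, a log2 ratio of 0.90 ± 0.08 (SE). TDP43 control neurites had 58.5, 45.0, 51.3, 37.3 and 45.4 CPM, against 27.1, 27.9, 27.2, 27.0 and 27.5 CPM in control soma, a log2 ratio of 0.80 ± 0.08. These are the values by which it was chosen, and the fractions did not overlap in either set. With library sizes the log2 ratios were 0.54 and 0.19 in hnRNPA1 and TDP43 controls. Cells that the choice did not use gave the following. In hnRNPA1 knockdown neurites DLL1 ran from 37.3 to 63.2 CPM with a median of 51.4, against 30.0 to 37.5 CPM with a median of 34.0 in knockdown soma, and 1 neurite library reached into the soma range. The log2 ratio was 0.60 ± 0.08 (adjusted p = 5.82e-07). TDP43 knockdown neurites had 50.2, 56.3, 64.9, 59.2 and 60.5 CPM, against 33.9, 38.9, 36.0 and 34.8 CPM in knockdown soma, with no overlap and a log2 ratio of 0.69 ± 0.08 (adjusted p = 6.57e-08). With library sizes both were 0.16, with adjusted p = 0.0654 for hnRNPA1 and 0.302 for TDP43. Untreated neurites had 2.53, 3.20, 4.97 and 2.44 CPM, against 5.32, 5.52, 6.02 and 4.65 CPM in untreated soma, a log2 ratio of -0.66 ± 0.30 (adjusted p = 0.0651). Only 30 counts stand behind the 4 untreated neurite libraries, and without neurite sample 6 the log2 ratio was -0.91 (adjusted p = 0.0452). With library sizes it was -1.87 (adjusted p = 2.32e-05).

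In order of mean level, the neurites of the 4 guide groups came first for DLL1 (58.2 CPM in TDP43 knockdown, 51.6 in hnRNPA1 knockdown, 50.9 in hnRNPA1 control and 47.5 in TDP43 control), then the soma of TDP43 knockdown (35.9) and hnRNPA1 knockdown (33.8), the soma of hnRNPA1 control (27.4) and TDP43 control (27.3), and untreated soma (5.38) and neurites (3.28). Neighbours in this order overlapped in range except hnRNPA1 knockdown soma and hnRNPA1 control soma, and TDP43 control soma and untreated soma. Set beside the controls on which it was chosen, DLL1 in hnRNPA1 knockdown soma lay above all control libraries, a log2 ratio of 0.31 ± 0.08, and in TDP43 knockdown soma above all its controls, at 0.39 ± 0.08. In neurites the ranges overlapped, with log2 ratios of 0.02 ± 0.08 for hnRNPA1 and 0.29 ± 0.08 for TDP43 knockdown.

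No source used here gives the strand setting of the counting, and DLL1 overlaps FAM120B on the other strand, in introns only. FAM120B averaged 145 ± 10.6 CPM in TDP43 knockdown soma (SD, n = 4) and 87.0 ± 4.98 CPM in control soma (SD, n = 5). It averaged 114.6 ± 4.55 CPM in hnRNPA1 control neurites and 90.0 ± 2.60 CPM in control soma (SD, n = 6 each), and 470.4 ± 37.2 CPM in untreated neurites and 73.3 ± 7.59 CPM in untreated soma (SD, n = 4 each). FAM120B was higher where DLL1 was higher in the first 2 contrasts. It was also higher in untreated neurites, where the DLL1 mean was lower but not called. In neurites against soma both were higher in TDP43 controls (FAM120B 0.62 log2, DLL1 0.80) and hnRNPA1 knockdown cells (0.255 and 0.60). In TDP43 knockdown cells these were 0.19, not called for FAM120B (adjusted p = 0.0511), and 0.69. Both were higher in TDP43 knockdown than control neurites (0.30 and 0.29). In hnRNPA1 knockdown soma, where DLL1 lay above all controls, the FAM120B log2 ratio was -0.07 ± 0.05 (edgeR, adjusted p = 0.475). In hnRNPA1 knockdown neurites, where DLL1 lay at 0.02, FAM120B was lower (-0.16 ± 0.05, adjusted p = 0.0278). Its part in the DLL1 counts was not tested.

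DLL3, the inhibitory Delta ligand, rose with both knockdowns in neurites. It ran from 28.7 to 40.2 CPM with a median of 33.3 in hnRNPA1 knockdown neurites, and from 17.7 to 28.2 CPM with a median of 22.9 in control neurites, with no overlap. The log2 ratio was 0.65 ± 0.11 (adjusted p = 8.17e-05). In soma it averaged 23.7 ± 1.66 CPM in knockdown and 20.2 ± 3.63 CPM in control (SD, n = 6 each; log2 ratio 0.25 ± 0.10, adjusted p = 0.148). TDP43 knockdown neurites had 22.2, 28.5, 21.1, 23.7 and 19.0 CPM, against 14.6, 14.2, 21.2, 21.5 and 15.1 CPM in controls, which overlap. That log2 ratio was 0.42 ± 0.13 (adjusted p = 0.0217), and the call was lost without control neurite sample 1, 2 or 6 or knockdown neurite sample 2, where the log2 ratio was 0.36 to 0.38 and the adjusted p 0.0568 to 0.0685. In TDP43 knockdown soma DLL3 was higher by 0.47 ± 0.11 log2 (adjusted p = 0.00328), with 24.9, 29.5, 25.5 and 23.1 CPM against 16.5, 23.2, 15.1, 20.9 and 17.2 CPM in control soma.

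Between fractions DLL3 was called higher in neurites of untreated and hnRNPA1 knockdown cells, and it was not tested against DLL1. Untreated neurites had 10.1, 11.5, 13.2 and 15.5 CPM of DLL3, against 3.77, 4.12, 3.66 and 3.88 CPM in untreated soma, a log2 ratio of 1.73 ± 0.22 (adjusted p = 7.6e-07). With library sizes it was 0.50 (adjusted p = 0.0533). hnRNPA1 knockdown neurites also lay above all knockdown soma libraries, at 0.53 ± 0.11 (adjusted p = 0.000151), and with library sizes this was 0.09 (adjusted p = 0.374). DLL3 was not called between fractions in hnRNPA1 controls (0.13 ± 0.11, adjusted p = 0.325), TDP43 controls (-0.14 ± 0.13, adjusted p = 0.404) or TDP43 knockdown cells (-0.19 ± 0.12, adjusted p = 0.189). With library sizes it was called lower in the neurites of all 3, at -0.22, -0.75 and -0.73 in that order, and in TDP43 knockdown cells also without a filter on low counts (-0.28, adjusted p = 0.00439).

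Of the Serrate-type ligands, JAG1 was called higher in neurites in 3 of the 4 guide groups and JAG2 lower in all 4. The JAG1 direction depended on scaling. JAG2 was lower in neurites in all 5 conditions. Library sizes shift genes toward lower in neurites, with a median log2 of -0.40 in place of -0.05 in hnRNPA1 controls. They could therefore not turn the JAG2 direction and are no check of it. It averaged 33.3 ± 3.67 CPM in hnRNPA1 control neurites and 44.8 ± 3.52 CPM in control soma (SD, n = 6 each), with no overlap and a log2 ratio of -0.43 ± 0.07 (adjusted p = 2.26e-06). TDP43 control neurites had 25.8, 29.7, 22.3, 24.8 and 28.9 CPM, against 41.7, 42.9, 38.1, 44.3 and 37.6 CPM in control soma (log2 ratio -0.62 ± 0.08, adjusted p = 4.46e-07). Untreated neurites had 7.58, 5.12, 6.95 and 5.30 CPM of JAG2, against 13.8, 11.4, 14.2 and 10.5 CPM in untreated soma (log2 ratio -1.01 ± 0.21, adjusted p = 0.000418). In knockdown cells the neurite and soma ranges overlapped, and the log2 ratio was -0.22 ± 0.07 for hnRNPA1 (adjusted p = 0.0103) and -0.40 ± 0.09 for TDP43 (adjusted p = 0.000237). JAG2 was higher in hnRNPA1 knockdown neurites, with 37.2 to 45.9 CPM and a median of 39.8, than in control neurites, with 30.1 to 38.0 CPM and a median of 32. The log2 ratio was 0.30 ± 0.07 (adjusted p = 0.00373), and 0.16 with library sizes (adjusted p = 0.138). In TDP43 knockdown neurites it was 0.21 ± 0.09 (adjusted p = 0.0841), and without control neurite sample 2 it was 0.26 (adjusted p = 0.0473). AL512356.1 shares exon bases with JAG2 on the same strand, so the counting could divide or drop reads there.

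JAG1 was higher in neurites of both control sets. It averaged 7.44 ± 0.461 CPM in hnRNPA1 control neurites and 5.36 ± 0.575 CPM in control soma (SD, n = 6 each; log2 ratio 0.48 ± 0.09, adjusted p = 7.19e-05). TDP43 control neurites ran from 7.51 to 9.83 CPM and control soma from 5.74 to 6.69 CPM (log2 ratio 0.42 ± 0.11, adjusted p = 0.00166). In hnRNPA1 knockdown cells the log2 ratio was 0.37 ± 0.10 (adjusted p = 0.00356). The direction turned with library sizes in TDP43 controls (-0.18) and in hnRNPA1 knockdown cells (-0.07), and the call ended in hnRNPA1 controls (0.12, adjusted p = 0.303). In TDP43 knockdown cells the ranges overlapped and JAG1 was not called (0.21 ± 0.11, adjusted p = 0.0993). Untreated cells had 5.30 to 6.62 CPM of JAG1 in neurites and 6.02 to 8.78 CPM in soma (log2 ratio -0.26 ± 0.24, adjusted p = 0.37). JAG1 passed no threshold on knockdown in either fraction, with log2 ratios from -0.14 to 0.26. Without hnRNPA1 control soma sample 4, which at 6.48 CPM stood above its group, the ratio in hnRNPA1 knockdown soma was 0.31 (adjusted p = 0.0398). The antisense gene AL050403.2 shares exon bases with JAG1.

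**Figure D4:**
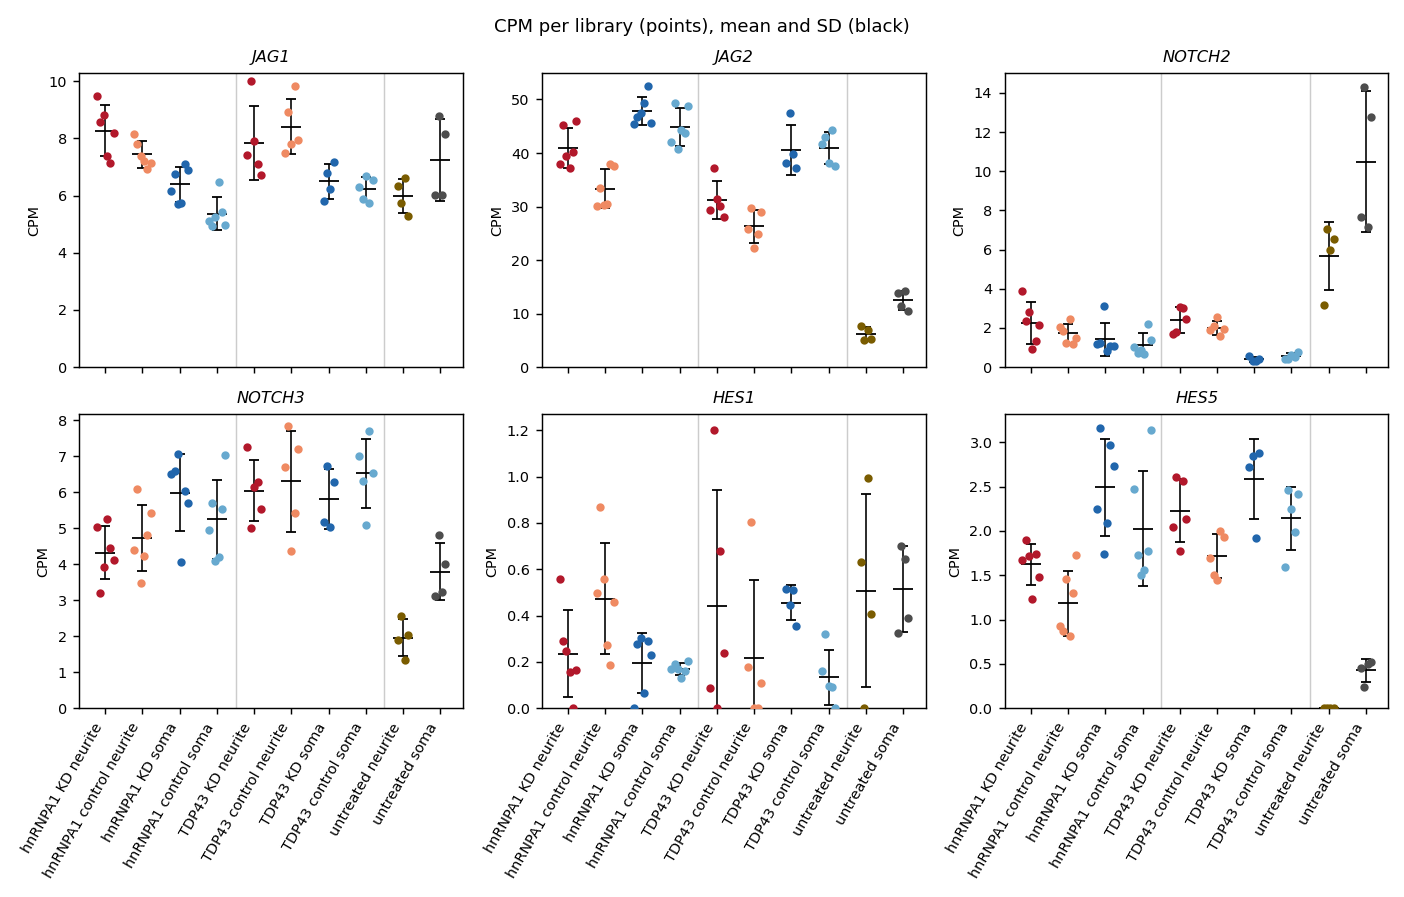
Level of JAG1, JAG2, NOTCH2, NOTCH3, HES1 and HES5 (CPM, y axis) in each library of the 10 groups (x axis; KD, knockdown). Points are libraries and black bars the mean and SD; NOTCH2 is at 3.16 CPM or more in untreated libraries, and HES5 is at 0 in all 4 untreated neurite libraries.

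NOTCH1, the receptor best known from neural progenitors, rose in neurites with both knockdowns. It ran from 4.76 to 6.95 CPM with a median of 5.91 in hnRNPA1 knockdown neurites, and from 1.91 to 3.91 CPM with a median of 2.38 in control neurites. No library of the groups overlapped, and the log2 ratio was 1.113 ± 0.17 (adjusted p = 1.36e-05). TDP43 knockdown neurites had 5.38, 4.01, 3.71, 3.78 and 3.24 CPM, against 1.34, 2.21, 0.906, 2.14 and 1.83 CPM in control neurites, again with no overlap and a log2 ratio of 1.228 ± 0.21 (adjusted p = 8.56e-05). These levels rest on few reads: 223 counts over the 6 hnRNPA1 knockdown neurite libraries and 175 over their controls, and 197 over the 5 TDP43 knockdown neurite libraries and 74 over their controls. In TDP43 knockdown soma NOTCH1 had 3.18, 2.76, 1.88 and 2.83 CPM, against 1.56, 1.87, 1.66, 1.81 and 1.57 CPM in control soma (log2 ratio 0.65 ± 0.17, adjusted p = 0.00629). In hnRNPA1 knockdown soma the ratio was 0.21 ± 0.16 (adjusted p = 0.486).

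Between fractions, NOTCH1 was higher in neurites of hnRNPA1 knockdown cells, where neurites ran from 4.76 to 6.95 CPM and soma from 2.23 to 3.10 CPM (log2 ratio 1.096 ± 0.16, adjusted p = 1.3e-06). It was higher in neurites of TDP43 knockdown cells too (0.60 ± 0.17, adjusted p = 0.00396), with 0.07 by library sizes (adjusted p = 0.772). In controls the ratio was 0.20 ± 0.17 for hnRNPA1 (adjusted p = 0.337) and 0.03 ± 0.22 for TDP43 (adjusted p = 0.933), and with library sizes the TDP43 ratio was -0.57 (adjusted p = 0.0272). The difference itself, the knockdown ratio minus the control ratio, was 0.90 ± 0.23 log2 for hnRNPA1 (adjusted p = 0.117) and 0.57 ± 0.28 for TDP43 (adjusted p = 0.191), so neither was called. Without hnRNPA1 control neurite sample 6, the highest control for NOTCH1, the first was 1.01 (adjusted p = 0.0417). In untreated cells NOTCH1 was under the filter, at 0.632, 0, 2.32 and 0.407 CPM in neurites and 0.909 to 1.79 CPM in soma.

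NOTCH2, a receptor with human-specific partial copies, was higher in neurites than soma in the TDP43 experiment and lower in neurites of untreated cells. TDP43 knockdown neurites had 1.71, 1.804, 3.07, 3.02 and 2.45 CPM, against 0.564, 0.325, 0.299 and 0.435 CPM in knockdown soma (log2 ratio 2.57 ± 0.25, adjusted p = 1.13e-09). TDP43 control neurites had 1.88, 2.11, 2.54, 1.57 and 1.94 CPM, against 0.400, 0.428, 0.635, 0.498 and 0.764 CPM in control soma (log2 ratio 1.84 ± 0.25, adjusted p = 4.51e-07). Untreated neurites had 3.16, 7.04, 5.96 and 6.52 CPM, against 7.66, 14.3, 7.17 and 12.8 CPM in untreated soma (log2 ratio -0.84 ± 0.30, adjusted p = 0.021). That call was lost without neurite sample 4 or 6 or soma sample 5, with log2 ratios from -0.76 to -0.60 and adjusted p from 0.0619 to 0.112. In the hnRNPA1 experiment NOTCH2 was not called between fractions (0.67 ± 0.34 in knockdown, adjusted p = 0.118, and 0.55 ± 0.32 in control, adjusted p = 0.156). Without knockdown soma sample 3, which held 3.11 CPM, the knockdown ratio was 1.07 (adjusted p = 0.00839), without knockdown neurite sample 4 it was 0.84 (adjusted p = 0.0499), and without control soma sample 5 the control ratio was 0.88 (adjusted p = 0.024). The deposited NOTCH2 values are fractional in 50 of the 51 libraries where they are above 0, so reads were divided between genes, and its level and ratios are uncertain.

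Some markers of vessel and mural cells also differed between these fractions, in both directions for the mesenchymal and mural list of TDP43 controls. PECAM1, an endothelial marker, averaged 5.81 CPM in TDP43 knockdown neurites and 0.118 CPM in knockdown soma (adjusted p = 1.76e-14), and 9.97 CPM in TDP43 control neurites and 0.263 CPM in control soma (adjusted p = 2.37e-16). PDGFRB, a mural marker, averaged 1.66 CPM in TDP43 control neurites and 0.132 CPM in control soma (adjusted p = 1.8e-08). It is 1 of 2 markers of its list called higher in that comparison, and 2 others were called lower. Over TDP43 control libraries the 9 endothelial markers summed to 8.97 to 16.8 CPM in neurites and under 3 CPM in each soma library, and CDH5, KDR, TEK, TIE1, CLDN5 and ERG averaged under 0.5 CPM in both. Only 2 endothelial markers passed the filter in TDP43 controls, with 1 called higher and 0 lower in neurites, against 24.1% and 22.3% of all genes. In untreated cells the endothelial sums were 8.21 to 18.9 CPM in neurites and 20.2 to 38.2 CPM in soma. There 2 of the 6 endothelial markers tested (PECAM1 and VWF) and 2 of the 9 mesenchymal and mural markers tested (ACTA2 and DCN) were lower in neurites. In either list 0 were higher there, against 27.8% of all genes lower and 28.7% higher. The 12 mesenchymal and mural markers summed to 58.1 to 74.1 CPM in TDP43 control neurites and 73.6 to 80.3 CPM in control soma. Of 7 tested there, 2 were called higher and 2 lower. In untreated cells they summed to 57.4 to 67.5 CPM in neurites and 71.7 to 87.8 CPM in soma. In hnRNPA1 controls, where NOTCH2 was not called, the endothelial sums were 7.31 to 11.2 CPM in neurites and 1.92 to 7.29 CPM in soma. The 1 endothelial marker tested there was called higher in neurites, at 3.90 log2, and also in hnRNPA1 knockdown cells, at 2.45. Of the 7 mesenchymal and mural markers tested in hnRNPA1 controls, 2 were higher and 1 lower, against 23.5% and 24.9% of all genes. The part of such cells in the NOTCH2 and NOTCH3 values was not tested.

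NOTCH3, a receptor known from progenitors and vessel walls, passed no threshold on knockdown, with log2 ratios from -0.16 to 0.20 over the 4 contrasts. It was lower in neurites of untreated cells, at 1.32 to 2.56 CPM against 3.12 to 4.82 CPM in soma (log2 ratio -1.003 ± 0.37, adjusted p = 0.0255). This rests on 16 counts in neurites. It was lost without neurite sample 4, 6 or 7 or soma sample 5 (log2 ratios -0.98 to -0.71, adjusted p 0.0602 to 0.177), with DESeq2 (adjusted p = 0.0909) and without a filter on low counts (adjusted p = 0.0565). NOTCH3 was also lower in hnRNPA1 knockdown neurites, with 3.20 to 5.24 CPM, than in knockdown soma, with 4.06 to 7.06 CPM (log2 ratio -0.48 ± 0.17, adjusted p = 0.0248), and this call was lost without neurite sample 2 or 3 or soma sample 2 or 3 (log2 ratios -0.44 to -0.40, adjusted p 0.0531 to 0.0794). In the controls and in TDP43 knockdown cells its neurite to soma ratio lay between -0.16 and 0.07.

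HES6, the HES gene raised by proneural factors, was called on knockdown in neurites of the hnRNPA1 and soma of the TDP43 experiment. It ran from 39.4 to 58.2 CPM with a median of 46.2 in hnRNPA1 knockdown neurites, and from 29.4 to 39.0 CPM with a median of 31.8 in control neurites, with no overlap. The log2 ratio was 0.50 ± 0.10 (adjusted p = 0.0005). In hnRNPA1 knockdown soma it was 0.04 ± 0.09 (adjusted p = 0.842). TDP43 knockdown soma had 25.3, 29.1, 25.9 and 28.0 CPM, against 26.6, 38.6, 32.8, 38.8 and 34.9 CPM in control soma, a log2 ratio of -0.34 ± 0.12 (adjusted p = 0.0378), and 1 control library lay in the knockdown range. TDP43 knockdown neurites had 32.1, 34.9, 37.1, 37.9 and 22.0 CPM, against 27.3, 24, 34.1, 31.5 and 23.7 CPM in control neurites (0.23 ± 0.13, adjusted p = 0.204). Without knockdown neurite sample 5, the lowest of its group, this was 0.36 (adjusted p = 0.0205). The TDP43 knockdown ratio of neurites to soma exceeded the control ratio by 0.57 ± 0.17 log2 (adjusted p = 0.0335), and DESeq2 also called it (adjusted p = 0.0378), while with library sizes it was 0.66 (adjusted p = 0.0606).

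Several HES6 calls were close to the threshold. The change of its ratio was lost without control neurite sample 2 or 6, control soma sample 2 or 5, knockdown neurite sample 3 or 4 or knockdown soma sample 1 or 3 (log2 values 0.50 to 0.55, adjusted p 0.0596 to 0.0782). The lower level in TDP43 knockdown soma was lost without control soma sample 2, 5 or 6 or knockdown soma sample 1, 3 or 4 (log2 ratios -0.36 to -0.29, adjusted p 0.0641 to 0.109), with DESeq2 (adjusted p = 0.0709) and with library sizes (adjusted p = 0.135). Between fractions, HES6 was lower in TDP43 control neurites (-0.31 ± 0.12, adjusted p = 0.036), and this was lost without control neurite sample 1, 2 or 6 or control soma sample 2, 5 or 6 (log2 ratios -0.30 to -0.25, adjusted p 0.0594 to 0.114) and with DESeq2 (adjusted p = 0.075). In TDP43 knockdown cells it was 0.26 ± 0.12 (adjusted p = 0.0727). In the fit with the replicate number as a block within this treatment, whose samples are paired by the check of their deviations, it was 0.40 (adjusted p = 0.00182), and without knockdown neurite sample 5, which has no soma partner, 0.39 (adjusted p = 0.00318). HES6 was higher in hnRNPA1 knockdown neurites than knockdown soma (0.29 ± 0.09, adjusted p = 0.0147). Without neurite sample 1 this was 0.22 (adjusted p = 0.0678), and with library sizes it was -0.15. In untreated cells HES6 was under the filter, at 0, 2.56, 3.64 and 2.04 CPM in neurites and 1.104, 1.166, 1.86 and 1.034 CPM in soma.

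HES5 and HES1, the textbook Notch targets whose upstream sequences hold the RBPJ motif shown above, were scarce. HES5 ran from 0.817 to 1.73 CPM in hnRNPA1 control neurites, and from 1.503 to 3.14 CPM in control soma (log2 ratio -0.73 ± 0.22, adjusted p = 0.0063). In the TDP43 experiment it was not called between fractions (-0.23 ± 0.17 in knockdown, adjusted p = 0.273, and -0.31 ± 0.19 in control, adjusted p = 0.199), and with library sizes it was called lower in neurites of both (-0.75 and -0.90). In hnRNPA1 knockdown cells it ran from 1.233 to 1.89 CPM in neurites and from 1.75 to 3.16 CPM in soma (log2 ratio -0.63 ± 0.23, adjusted p = 0.0304), a call that was lost without neurite sample 4 or 6 or soma sample 2, 5 or 6 (log2 ratios -0.61 to -0.54, adjusted p 0.0519 to 0.0811) and with DESeq2 (adjusted p = 0.0757). HES5 was not called on knockdown, with log2 ratios of 0.44 ± 0.27 and 0.35 ± 0.18 for hnRNPA1 in neurites and soma, and 0.37 ± 0.21 and 0.29 ± 0.15 for TDP43. In untreated cells all 4 neurite libraries had 0 counts of HES5, which allows up to 0.348 CPM (3 counts over the group, counting error only), against 0.233 to 0.517 CPM in untreated soma. HES1 reached at most 1.203 CPM in a library and was at 0 in 7 of the 51. In TDP43 knockdown soma it had 46 counts over 4 libraries and a mean of 0.456 ± 0.0753 CPM (SD, n = 4), against 14 counts over 5 libraries and 0.134 ± 0.119 CPM in control soma (SD, n = 5), with no overlap. HES1 was not tested in the filtered fit, and without a filter its log2 ratio there was 1.75 (adjusted p = 0.00277), and that of hnRNPA1 control neurites over soma was 1.44 (adjusted p = 0.0257).

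Levels in the non-targeting controls were set beside those in untreated cells as a description, since guide, experiment and kit version cannot be told apart and the experiments were normalized separately. HES6 averaged 33.1 CPM in hnRNPA1 control neurites and 2.06 CPM in untreated neurites, 16.1-fold higher, and 37.0 CPM in control soma and 1.29 CPM in untreated soma, 28.6-fold higher. DLL1 averaged 50.9 CPM in hnRNPA1 control neurites and 3.28 CPM in untreated neurites, 15.5-fold higher, and 27.4 CPM in control soma and 5.38 CPM in untreated soma, 5.09-fold higher. NOTCH2 went the other way, at 1.135 CPM in hnRNPA1 control soma and 10.5 CPM in untreated soma. Members other than DLL1 at least 4-fold above untreated cells on the log2(CPM + 0.5) scale were as follows. They were JAG2 and HES6 in hnRNPA1 control neurites, against 4.83% of genes, and DLL3 and HES6 in hnRNPA1 control soma, against 3.66%. In TDP43 controls they were HES5 and HES6 in neurites, against 4.58% of genes, and DLL3 and HES6 in soma, against 3.34%. DLL1 also lay that far above in each, but it was chosen on the control libraries and is not set against these shares. HES1 averaged under 1 CPM in these groups and was not among the genes compared. HES5 is listed at 0 in untreated neurites, and set against the limit of 0.348 CPM it was at least 4.93-fold higher in TDP43 control neurites and at least 3.40-fold higher in hnRNPA1 control neurites. JAG1 was at 7.44 CPM in hnRNPA1 control neurites and 6.00 CPM in untreated neurites.

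Over the 10 group means of log2(CPM + 0.5), the protein-coding genes most like DLL1 among 12607 were ARHGAP45 (Pearson r = 0.996), PTBP1 (0.995), SLC25A51 (0.991), MEX3B (0.990) and CACTIN (0.989). All share with DLL1 the low untreated groups and higher neurite than soma means in the guide groups: PTBP1, a splicing repressor of progenitors, averaged 66.5 CPM in hnRNPA1 control neurites and 56.9 CPM in control soma, against 17.9 CPM in untreated neurites and 22.9 CPM in untreated soma. The 10 means come from the same libraries for every gene, and untreated cells lie apart from guide groups in all of them, so this is given with no test. Among members, r with DLL1 was 0.867 for JAG2, 0.809 for NOTCH3, 0.771 for DLL3, 0.430 for JAG1 and -0.678 for NOTCH2. HES6, NOTCH1, HES1 and HES5 did not pass the filter in all 3 experiments and were not compared.

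The rest of the pathway was followed in 56 other genes, of which 51 passed the filter in each knockdown experiment and 47 in untreated cells. In hnRNPA1 knockdown neurites 7 were higher and 4 lower, against 8.9% and 7.19% of all genes, with a median log2 ratio of 0.03. In TDP43 knockdown neurites 14 were higher and 5 lower, against 13.9% and 10.8%, with a median of 0.06. In soma, hnRNPA1 knockdown gave 1 higher and 1 lower, against 3.77% and 3.29%, and TDP43 knockdown 7 higher and 10 lower, against 9.36% and 9.55%. Between fractions, 18 were higher and 21 lower in hnRNPA1 control neurites, against 23.5% and 24.9%. These numbers were 17 and 22 in TDP43 control neurites, against 24.1% and 22.3%, and 18 and 15 in untreated neurites, against 28.7% and 27.8%. Of the 15 genes of the nuclear complex and its corepressors, 11 were called higher and 2 lower in neurites of hnRNPA1 controls, where 23.5% of all genes were higher and 24.9% lower. In TDP43 controls 9 were higher and 2 lower, against 24.1% and 22.3%, and in untreated cells 11 and 2, against 28.7% and 27.8%. These splits did not hold with library sizes, which gave 5 higher and 4 lower in hnRNPA1 controls, 0 and 8 in TDP43 controls, and 1 and 11 in untreated cells. MAML3, a Mastermind coactivator, averaged 406.5 ± 27.2 CPM in hnRNPA1 control neurites and 242.1 ± 13.7 CPM in control soma (SD, n = 6 each; log2 ratio 0.75 ± 0.05, adjusted p = 1.99e-13). RBPJ, the DNA-binding partner of Notch, was lower in neurites, at 88.5 ± 4.90 CPM against 101.5 ± 6.77 CPM in control soma (log2 ratio -0.20 ± 0.05, adjusted p = 0.00131). FBXW7, which targets the freed Notch fragment for breakdown, was higher in neurites of hnRNPA1 controls by 1.801 ± 0.08 log2 (adjusted p = 3.57e-18). MIB1, a ligase that drives ligand uptake, was higher by 0.52 ± 0.05 (adjusted p = 6.84e-11). RFNG, a Fringe enzyme that modifies the receptor, was lower in neurites (-0.83 ± 0.11, adjusted p = 8.29e-08).

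On knockdown, single pathway genes moved as follows. SPEN, an RBPJ corepressor, was higher in TDP43 knockdown neurites, at 592.3 ± 37.8 CPM against 417.5 ± 45.1 CPM in controls (SD, n = 5 each; log2 ratio 0.50 ± 0.07, adjusted p = 1.57e-06). TLE4, a Groucho corepressor that HES proteins recruit, was lower in TDP43 knockdown soma, at 13.6 ± 0.264 CPM (SD, n = 4) against 26.2 ± 1.08 CPM in controls (SD, n = 5; log2 ratio -0.95 ± 0.08, adjusted p = 3.15e-10). DLL4, another Delta ligand, was higher in TDP43 knockdown soma (0.34 ± 0.07, adjusted p = 0.000351), and DNER, a Delta-like surface protein of neurons, was lower there (-0.47 ± 0.06, adjusted p = 1.11e-06). DNER was also lower in hnRNPA1 knockdown neurites (-0.20 ± 0.06, adjusted p = 0.0164) and soma (-0.20 ± 0.06, adjusted p = 0.0268). Of 7 further HES and HEY genes 3 passed the filter, and HES4 was higher in knockdown neurites of both experiments (0.45 ± 0.13 for hnRNPA1, adjusted p = 0.012, and 0.49 ± 0.13 for TDP43, adjusted p = 0.0073).

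Proneural factors lie upstream of DLL1, DLL3 and HES6 in neurogenesis. Of 14 listed, 10 passed the filter, and in hnRNPA1 knockdown neurites 7 were higher and 1 lower (MYT1L, -0.24 ± 0.04, adjusted p = 0.000152), against 8.9% and 7.19% of all genes. NEUROD4 averaged 32.7 ± 5.31 CPM in hnRNPA1 knockdown neurites and 15.4 ± 0.787 CPM in controls (SD, n = 6 each; log2 ratio 1.095 ± 0.10, adjusted p = 2.59e-09). INSM1 averaged 97.7 ± 16.6 CPM in the knockdown neurites and 49.0 ± 6.61 CPM in controls (SD, n = 6 each; log2 ratio 1.004 ± 0.10, adjusted p = 6.4e-09). In hnRNPA1 knockdown soma 4 were higher and 0 lower, against 3.77% and 3.29% of genes. In TDP43 knockdown neurites 4 were higher and 0 lower, against 13.9% and 10.8%, led by NHLH1 (0.60 ± 0.07, adjusted p = 1.23e-07), and in TDP43 knockdown soma 2 were higher and 1 lower, against 9.36% and 9.55%, led by NEUROD1 (1.42 ± 0.10, adjusted p = 2.51e-11). Progenitor markers moved less evenly: in hnRNPA1 knockdown neurites 3 of the 11 tested were higher and 1 lower, against 8.9% and 7.19% of genes. In TDP43 knockdown soma 2 of 11 were higher and 3 lower, against 9.36% and 9.55%. The summed progenitor level ran from 582 to 734 CPM in hnRNPA1 knockdown neurites and from 470 to 582 CPM in controls, with NES, at 614 CPM against 465 CPM, making up most of it. Their part in the Notch gene values was not tested.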

How the data were processed

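The deposited table holds expected counts per gene: 81.1% of the values above 0 were whole within 0.005 and the rest fractional. Per the submitters' processing notes, the authors used STAR 2.7.11b, Subread 2.0.6 (featureCounts) and hg38. Values were rounded to whole numbers before testing. The TDP43 knockdown soma library with fewer than 100000 counts was left out, leaving 51 of 52. CPM were computed from rounded counts and TMM-scaled library sizes. Each experiment was fitted on its own in edgeR 4.0.16 (quasi-likelihood F test, filterByExpr, 1 coefficient per group), both knockdown experiments together for the difference of their effects, with Benjamini-Hochberg adjustment over all genes and calls at an adjusted p under 0.05. The standard error is the log2 ratio divided by the root of F. Log2 ratios are neurites over soma and knockdown over control. The script was tested on simulated data.

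The members and gene lists were chosen with earlier results of these data known. DLL1 has no test in contrasts that hold control libraries, on which it was chosen. Members are all named, and from the other pathway, proneural and marker lists at most the 2 called genes with the smallest adjusted p per list, comparison and direction are named. NES was singled out after its values were seen. The sequences are from RefSeq. The labels' replicate numbers were checked as pairs by the correlation of deviations from group means. TDP43 knockdown neurites and soma (4 pairs, r from 0.148 to 0.289) and TDP43 knockdown and control soma (3 pairs, r from 0.156 to 0.313) met the rule that every pair exceeds 0.1. Alternatives were DESeq2, RLE scaling, library sizes, no filter, the replicate block, and leaving out each library. Total counts limit the precision of low genes, and intervals from counts cover counting error only.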

Additional observations from a re-analysis of the deposited data

Results flagged for a closer look

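In 84 groups of 4, 5 or 6 libraries, 3 had a library whose gap to the nearest other exceeded Dixon's critical value for the group's size, and chance gives about 1 in 20 groups. JAG1 was at 6.48 CPM in hnRNPA1 control soma sample 4, against 4.92 to 5.41 CPM in the other 5. NOTCH2 was at 3.11 CPM in hnRNPA1 knockdown soma sample 3, against 0.811 to 1.219 CPM in the others. HES5 was at 1.92 CPM in TDP43 knockdown soma sample 3, against 2.72 to 2.88 CPM in the others. The neurite to soma ratio of HES6 differed between TDP43 knockdown and control by 0.57 on the log2 scale (edgeR interaction term, adjusted p = 0.0335).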

How the results depend on the processing

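Of 38 member results that were called or described, all kept direction and side of the threshold with RLE scaling, 34 with DESeq2, 37 with no filter on low counts and 22 with library sizes, and over all left-out libraries 366 values kept both and 41 lost the call. With library sizes, members other than DLL1 called in neurites against soma were 5 in hnRNPA1 controls, 4 in hnRNPA1 knockdown cells and 7 in TDP43 controls. They were 2 in TDP43 knockdown soma, 0 for the TDP43 change of the ratio and 0 for the difference between knockdown effects in neurites. The 38 results and the left-out values include DLL1 in knockdown against control, where it has no test. Without DLL1, and with all libraries and TMM, 4 members were called in hnRNPA1 knockdown neurites and 0 in soma. In TDP43 knockdown they were 2 in neurites and 3 in soma. Library sizes turned the direction of JAG1 (-0.07) and HES6 (-0.15) in hnRNPA1 knockdown neurites against soma and of JAG1 in TDP43 controls (-0.18), and gave DLL1 0.54 and 0.19 in the hnRNPA1 and TDP43 controls. Without a filter on low counts 1 member was called for the hnRNPA1 change of the ratio. The cause was not tested. Leaving out 1 library at a time gave 2 to 4 members called in untreated cells. In neurites against soma it gave 3 to 4 in hnRNPA1 controls and 6 to 8 in hnRNPA1 knockdown cells. These were 3 to 4 in TDP43 controls and 4 to 5 in TDP43 knockdown cells. In untreated and knockdown cells these counts include DLL1. The change of the ratio was called in 0 to 1 for hnRNPA1 and 0 to 1 for TDP43. Where replicate numbers did not meet the pairing rule they are only a shared number. There the replicate block gave 3 members other than DLL1 called in TDP43 knockdown neurites in place of 2, adding JAG2 (0.23, adjusted p = 0.0423). In the paired sets it added HES6 (0.40) and changed no other call. Few counts limit NOTCH1, NOTCH2, NOTCH3, HES5 and HES1, above all in untreated neurites.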
